A study of Mus musculus with 24 samples.

Results

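The genes of the mitochondrial protein import machinery were examined in optically exercised muscle tissue. Members were all genes with a name of the form Timm or Tomm followed by a number, plus Pam16, Dnajc19, Grpel1, Hspa9, Chchd4, Gfer, Samm50, Pmpca, and Pmpcb, without pseudogene names, kept at a mean of at least 1 TPM (a transcript level scaled to a fixed sum per library and corrected for transcript length) over all libraries. Of 56941 genes in the tables, 35 met the name rule and 32 were kept, all of them among the 13318 genes tested. The 3 left out were Tomm20l, listed at 0 in every library, Timm8a2 (mean 0.105 TPM), and Tomm6os (0.148 TPM), a noncoding RNA caught by its name. RNA-seq was performed on 24 tissues grown from C2C12, an immortal mouse myoblast line that fuses into contractile muscle fibers, as sheets on fibrin gel in horse serum and IGF-1. In all groups, controls included, the cells carried the genotype ChR2::tdTomato, a blue light-gated ion channel with a red fluorescent protein. Light pulses were given for 30 min per day at 1, 4, or 10 Hz, and control tissues received none, with 6 libraries per condition. All tissues came from this single engineered line, and the tissues also twitch without light, so the control is not a resting muscle. Where replicates are separate wells of one culture, p-values measure the spread between wells.

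Most mitochondrial proteins are encoded in the nucleus, made in the cytosol, and imported. Precursors pass the outer membrane through the TOM complex, and those with a presequence then cross the inner membrane through TIM23, pulled in by a motor built on the matrix chaperone Hspa9, before the processing peptidase removes the presequence. Small Tim chaperones carry hydrophobic proteins through the intermembrane space to TIM22 or to the SAM complex, and the Chchd4 and Gfer relay forms disulfide bonds in small proteins there. Skeletal muscle relies on this pathway to keep up its dense mitochondria.

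Library totals ranged from 4.09 to 15.2 M counts, with means of 5.67 M in control and 8.16, 9.12, and 8.19 M at 1, 4, and 10 Hz. All 6 muscle markers (Acta1, Des, Myog, Myh3, Ckm, and Ttn) were expressed, with a summed level of 4215 to 5724 TPM in control, 6110 to 8702 at 1 Hz, 5502 to 9262 at 4 Hz, and 4054 to 6227 at 10 Hz. Acta1 made up most of this sum, with means of 3292 TPM in control, 5384 at 1 Hz, and 5123 at 4 Hz. Des, Myog, and Myh3 also had higher means at 1 Hz and 4 Hz than in control. At 10 Hz Myog averaged 457 TPM against 320 in control (edgeR on counts, adjusted p = 0.0142). Myh3 averaged 146 TPM at 10 Hz against 88.0 (adjusted p = 0.0123), and Acta1 3398 TPM. The 10 Hz means of Des (828 against 872 TPM), Ckm (79.2 against 91.9), and Ttn (43.2 against 45.9) were below control. Ckm averaged 91.9, 98.3, and 91.5 TPM in control, 1 Hz, and 4 Hz, and Ttn 45.9, 43.7, and 37.6 TPM. On the TPM scale the markers thus did not all move together. In edgeR on counts Ckm had a log2 fold change of 0.25 at 1 Hz (adjusted p = 0.190) and 0.28 at 4 Hz (adjusted p = 0.137). Ttn had 0.06 (adjusted p = 0.655) and 0.11 (adjusted p = 0.416) there, so the lower Ttn means were seen in TPM only. All 7 markers of immune, endothelial, fat, epithelial, and nerve cells averaged under 1 TPM, with a summed level of 0 to 1.25 TPM, and Ptprc, which defines immune cells, was at 0 in control, 4 Hz, and 10 Hz libraries. The 5 markers of cycling or reserve myoblasts summed to 11.2 to 33.3 TPM over all libraries. Within this sum Myf5 averaged 15.8 TPM in control and 9.16 at 4 Hz, while Pax7, Top2a, Mki67, and Ccnb1, all at lower levels in control, had higher means at 4 Hz than in control. Non-polyadenylated small RNA took 96.6 to 168 CPM (counts scaled to the same fixed total in each library) in control, 14.6 to 69.6 at 1 Hz, 17.2 to 50.0 at 4 Hz, and 37.1 to 272 at 10 Hz. The small RNA share thus did not overlap between control and 1 Hz or 4 Hz, and which libraries were ribodepleted rather than poly(A)-selected was not given, so this difference and the stimulation cannot be told apart. In bulk tissue, fewer muscle cells and less RNA per cell cannot be told apart either, and this holds for every level below.

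The label was checked with Tomm20, the presequence receptor of the outer membrane, and Timm23, the channel subunit of the inner membrane. Both were present in every library, at 158 to 423 TPM and 250 to 349 TPM. Hspa9 (mitochondrial Hsp70) had the highest mean of the members, 628 TPM, and was followed by Timm23 with 296, Tomm20 with 262, Timm13 with 225, Tomm6 with 210, Timm8b with 199, and Timm17a with 193 TPM. Tomm7, Tomm5, Tomm22, Timm10, and Pmpcb also averaged over 100 TPM, which made 12 members in all. The lowest levels were those of Tomm34 (31 TPM), Tomm40l (23.6 TPM), and Chchd4 (19.6 TPM), 32-fold under Hspa9. Of 31 neighbouring pairs in this order, 25 differed in mean by less than 1 SD, so only the wide steps of the order stood beyond the spread.

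**Figure D1:**
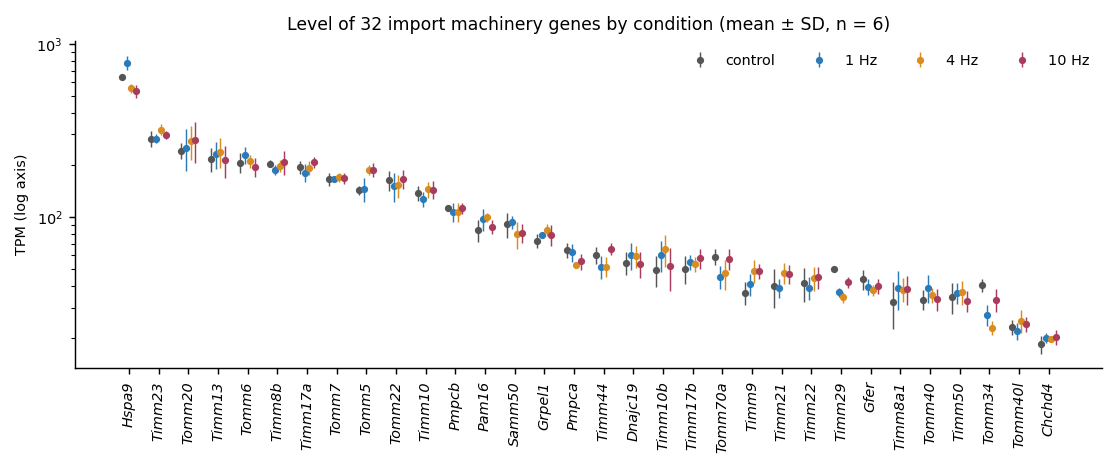
Level of the 32 import machinery genes in TPM on a log axis, ordered by the mean over all libraries, with the mean ± SD of 6 libraries for each condition. Hspa9 stands at the top at 628 TPM and Chchd4 at the bottom at 19.6 TPM, and most neighbours overlap.

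Promoters are shown for what the members share that the name rule did not use. RefSeq promoter windows (250 bases before to 50 after the start, mouse build GRCm38.p6) were found for 28 of the 32 members. The letters CCGGAAG, bound by ETS factors such as GABP, were present on either strand in 11 of these 28 (39.3%), against 20.3% of 9848 tested genes and 9.93% of all genes with a window. The NRF1 letters GCGCANGCG were in 5 members (17.9%) against 15.4% of tested genes, the YY1 letters AAGATGGCG in 1 (3.57%) against 3.67%, and CCAAT in 9 (32.1%) against 43.5%. ETS or NRF1 letters were found in 15 members (53.6%) against 32.1% of tested genes, and Timm8b held both. A match describes the letters only, and binding was not measured. The stretches around the match are printed 5′ to 3′ with the CCGGAAG letters in capitals, each on the strand on which the match reads this way, because they let the shared letters be compared between members that moved up, moved down, or did not pass the test.
Tomm70a (chr16:57121624-57121650, plus strand): ccttctgaccCCGGAAGtggttctccc
Tomm22 (chr15:79670811-79670837, minus strand): agagcgtcttCCGGAAGcgagccgggc
Tomm34 (chr2:164071192-164071218, plus strand): agctaagcggCCGGAAGagtgggctca
Timm23 (chr14:32201922-32201948, plus strand): tgtgtgcggcCCGGAAGtgggaagcgc
Grpel1 (chr5:36464971-36464997, minus strand): tctgggagccCCGGAAGgtgaggaggt
Timm10 (chr2:84826995-84827021, minus strand): cttctttgatCCGGAAGaaaacgccga
Timm10b (chr7:105640471-105640494, minus strand): agtcgccCCGGAAGtaaactctca
Timm29 (chr9:21592500-21592526, minus strand): tgagtggagcCCGGAAGtggtcagagc
Timm8b (chr9:50603879-50603905, plus strand): gaagcgtgaaCCGGAAGgcaggagacg
Pmpca (chr2:26389285-26389311, plus strand): gctcggcgggCCGGAAGccagcgccga
Pmpcb (chr5:21737134-21737160, plus strand): gagtcatgacCCGGAAGtacatctcca
In 10 of the 11 the printed match began 12 to 212 bases before the start, and in Timm10b it lay after the start. Of these 11 members, 4 were higher, 2 were lower, and 5 did not pass the test at 4 Hz against control, where 19.2% of all tested genes were higher and 20.2% lower, so the letters stood in promoters of genes that moved in either direction. The 250 bases before the start are given for Tomm5 (chr4:45108114-45108363, minus strand) and Tomm34 (chr2:164071170-164071419, minus strand), the members with the largest rise and the largest fall at 4 Hz, again with CCGGAAG or its reverse complement in capitals.
Tomm5: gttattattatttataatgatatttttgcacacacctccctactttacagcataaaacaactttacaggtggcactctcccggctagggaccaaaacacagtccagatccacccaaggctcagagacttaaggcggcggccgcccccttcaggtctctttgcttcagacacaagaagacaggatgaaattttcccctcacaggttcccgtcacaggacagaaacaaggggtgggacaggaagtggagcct
Tomm34: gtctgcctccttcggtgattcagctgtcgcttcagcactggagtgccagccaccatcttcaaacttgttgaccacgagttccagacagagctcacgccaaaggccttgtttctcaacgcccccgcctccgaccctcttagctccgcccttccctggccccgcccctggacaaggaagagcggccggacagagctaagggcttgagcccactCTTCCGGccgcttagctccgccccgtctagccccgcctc
The Tomm34 stretch holds 1 match, 39 bases before the start, and the Tomm5 stretch holds 0.

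To ask how training frequency related to import machinery transcripts, each condition was compared with control in edgeR's quasi-likelihood test over all 13318 genes, with Benjamini-Hochberg (BH) adjustment and a threshold of 0.05. The 3 comparisons share the 6 control libraries, so their values are given side by side and not correlated. At 4 Hz, 13 of 32 members (40.6%) were higher and 2 (6.25%) lower, against a background of 19.2% of all tested genes higher and 20.2% lower. The median log2 fold change of the members was 0.22, against -0.01 for all genes, and 26 of 32 values were positive. At 1 Hz, 3 members (9.38%) were higher and 5 (15.6%) lower, against 18.1% and 17.3% of all genes, and the median was 0.05 against -0.01. At 10 Hz, 2 members (6.25%) were higher and 0 lower, against 2.67% and 2.22% of all genes, and the median was 0.15 against -0.01. The count of 0 lower members at 10 Hz became 1 in DESeq2 and 2 in limma on log2(TPM + 1), and 12 members had an unadjusted p below 0.05 in edgeR in either direction. With an absolute log2 fold change above 0.5 as a further requirement, 0 members were higher and 1 lower at 1 Hz (9.34% and 8.99% of all genes), 3 higher and 1 lower at 4 Hz (10.5% and 9.61%), and 1 higher and 0 lower at 10 Hz (1.24% and 0.623%).

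**Figure D2:**
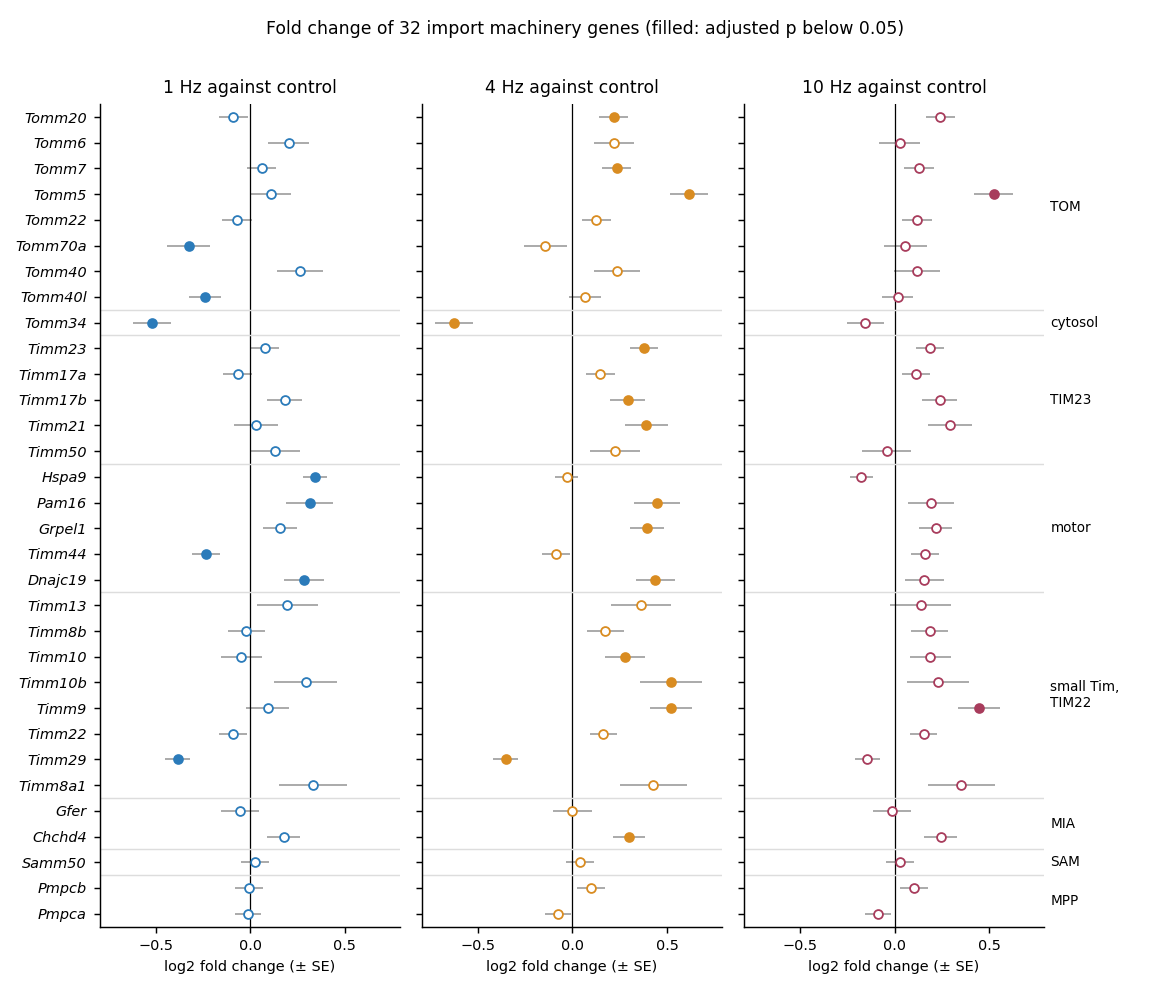
Log2 fold change against control with its standard error for the 32 members, grouped by role, at 1, 4, and 10 Hz, with filled points at an adjusted p below 0.05. At 4 Hz 13 filled points lie right of 0 and 2 left of it, at 1 Hz 3 and 5, and at 10 Hz 2 and 0.

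The 4 Hz counts and the 10 Hz median moved with how gene length and scaling were treated. Members were short: by the ratio of counts to TPM their median length was 0.502 of that of the median tested gene, and 20 of 32 lay in the shortest 25% of tested genes. Among those the median log2 fold change at 4 Hz was 0.14 over all 3330 genes and 0.28 over the 20 members, while in the other 3 length classes of 25% the medians over all genes ran from -0.08 to -0.04. With each library corrected for length, 5 members (15.6%) were higher and 2 (6.25%) lower at 4 Hz, with a median of 0.12, while 18.7% of all genes were higher and 19.1% lower. The share of members higher at 4 Hz was then below that of all genes. On log2(TPM + 1) in limma, 5 members were higher and 5 lower, the median of the members was 0.09, and the median of all genes was itself at -0.16, with 8.84% of genes higher and 29.2% lower. With the log2 share of small RNA as a covariate, 0 members passed at 1 Hz or 4 Hz in edgeR, where 3 and 9 had an unadjusted p below 0.05, and 2 were higher and 0 lower at 10 Hz. With this covariate few genes of any kind passed, namely 0.00751% higher and 0% lower at 1 Hz, 1.35% and 0.961% at 4 Hz, and 2.31% and 2.34% at 10 Hz, so the counts of 0 say nothing particular about the members. At 10 Hz the median over all genes of the shortest class was 0.11, and that of the members within it 0.19. With length correction the median of the members at 10 Hz was 0.04. Then 1 member was higher and 0 lower, against 1.77% and 1.21% of all genes.

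**Figure D3:**
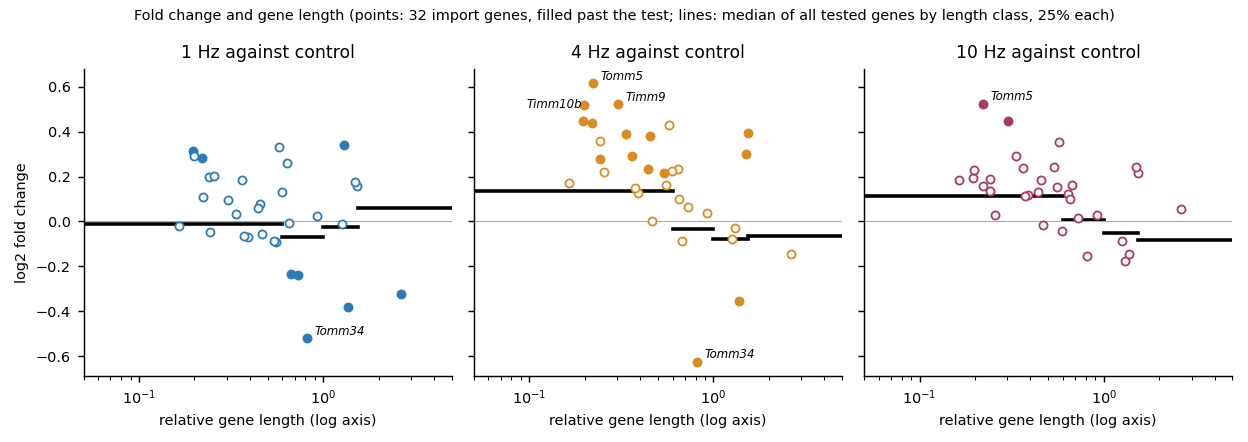
Log2 fold change against control and gene length relative to the median tested gene (log axis, shown from 0.05 to 5) for the 32 members as points, filled at an adjusted p below 0.05, with the median of all tested genes in each of 4 length classes as a line. At 4 Hz the line of the shortest class stands at 0.14 and the 20 members within it have a median of 0.28.

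In the TOM complex, 3 of 8 members were higher at 4 Hz and 1 at 10 Hz, and 2 were lower at 1 Hz, with 19.2% of all tested genes higher at 4 Hz, 2.67% higher at 10 Hz, and 17.3% lower at 1 Hz. Tomm5 (chr4:45105208-45108131, minus strand, GRCm39), a small subunit that stabilizes the channel, had a lowest, median, and highest library of 39.4, 48.3, and 51.4 CPM (on TMM-scaled library sizes) in control. These 3 values were 38.0, 50.5, and 62.1 CPM at 1 Hz, 66.2, 72.2, and 81.3 CPM at 4 Hz, and 60.9, 66.6, and 84.0 CPM at 10 Hz. Every 4 Hz and 10 Hz library was above every control library, and the 1 Hz libraries overlapped control. Its log2 fold change was 0.62 ± 0.10 (SE) at 4 Hz (edgeR, BH adjusted p = 4.81e-05), 0.52 ± 0.10 at 10 Hz (adjusted p = 0.00346), and 0.11 ± 0.10 at 1 Hz (adjusted p = 0.430). With length correction the 4 Hz value was 0.37 (adjusted p = 0.000912), and with the small RNA covariate it was 0.50 (adjusted p = 0.101). Tomm5 had the largest positive change of the members at 4 Hz and at 10 Hz, and its exons overlap no other annotated gene.

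Tomm20 (chr8:127657416-127672690, minus strand) had 171, 215, and 244 CPM as lowest, median, and highest control library. It had 175, 201, and 216 CPM at 1 Hz, 230.3, 240.3, and 263 CPM at 4 Hz, and 233, 248, and 268 CPM at 10 Hz. The 4 Hz and 10 Hz libraries lay in or above the upper part of the control range and overlapped it. The log2 fold change was 0.22 ± 0.08 at 4 Hz (edgeR, adjusted p = 0.0269), 0.24 ± 0.08 at 10 Hz (adjusted p = 0.0674), and -0.09 ± 0.08 at 1 Hz (adjusted p = 0.388). The 4 Hz call was lost with length correction (adjusted p = 0.0895), on log2(TPM + 1) (adjusted p = 0.460), with total count scaling (adjusted p = 0.167), and without control replicate 2 (adjusted p = 0.0542) or control replicate 4 (adjusted p = 0.0690). The estimated counts of Tomm20 were not whole in all 24 libraries, as happens where reads also fit other genes.

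Tomm7, another small subunit, rose by 0.23 ± 0.08 (edgeR, adjusted p = 0.0189) at 4 Hz, a call that ended without control replicate 6 (adjusted p = 0.0544) and in 7 of 14 other settings. Tomm70a, the receptor for carrier proteins, fell by 0.32 ± 0.11 on the log2 scale at 1 Hz (adjusted p = 0.0276), and Tomm40l, a paralog of the channel, fell by 0.24 ± 0.09 (adjusted p = 0.0312). The Tomm70a call was lost without 1 Hz replicate 4 (adjusted p = 0.0736), 5 (0.0623), or 6 (0.0728) and without control replicate 1 (0.0528), 3 (0.0790), or 6 (0.0545). The Tomm40l call was lost without 1 Hz replicate 2 (adjusted p = 0.0709) or 4 (0.0562), without control replicate 1 (0.0595) or 2 (0.117), and in 7 of 14 other settings. The channel Tomm40 itself had 0.26 ± 0.12 at 1 Hz (adjusted p = 0.0974) and 0.23 ± 0.12 at 4 Hz (adjusted p = 0.125), and did not pass. The central receptor Tomm22 and the small subunit Tomm6 did not pass in any comparison with control.

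Tomm34 (chr2:163895455-163913178, minus strand) carries a Tomm name, and its protein is a cytosolic cochaperone of Hsp70 and Hsp90 that binds precursors before import. It had 45.6, 50.3, and 53.2 CPM as lowest, median, and highest control library. The values were 29.0, 36.4, and 39.2 CPM at 1 Hz, 28.7, 32.7, and 34.9 CPM at 4 Hz, and 35.5, 42.3, and 54.9 CPM at 10 Hz. All 1 Hz and 4 Hz libraries lay below all control libraries, whereas the 10 Hz libraries spanned the gap and overlapped control. Tomm34 fell by 0.52 ± 0.10 on the log2 scale (edgeR, adjusted p = 0.000292) at 1 Hz and by 0.63 ± 0.10 at 4 Hz (adjusted p = 2.6e-05), the largest fall of the members in both. At 10 Hz the log2 fold change was -0.16 ± 0.10 (adjusted p = 0.393). With the small RNA covariate the values were -0.22 at 1 Hz (adjusted p = 0.621) and -0.32 at 4 Hz (adjusted p = 0.237).

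**Figure D4:**
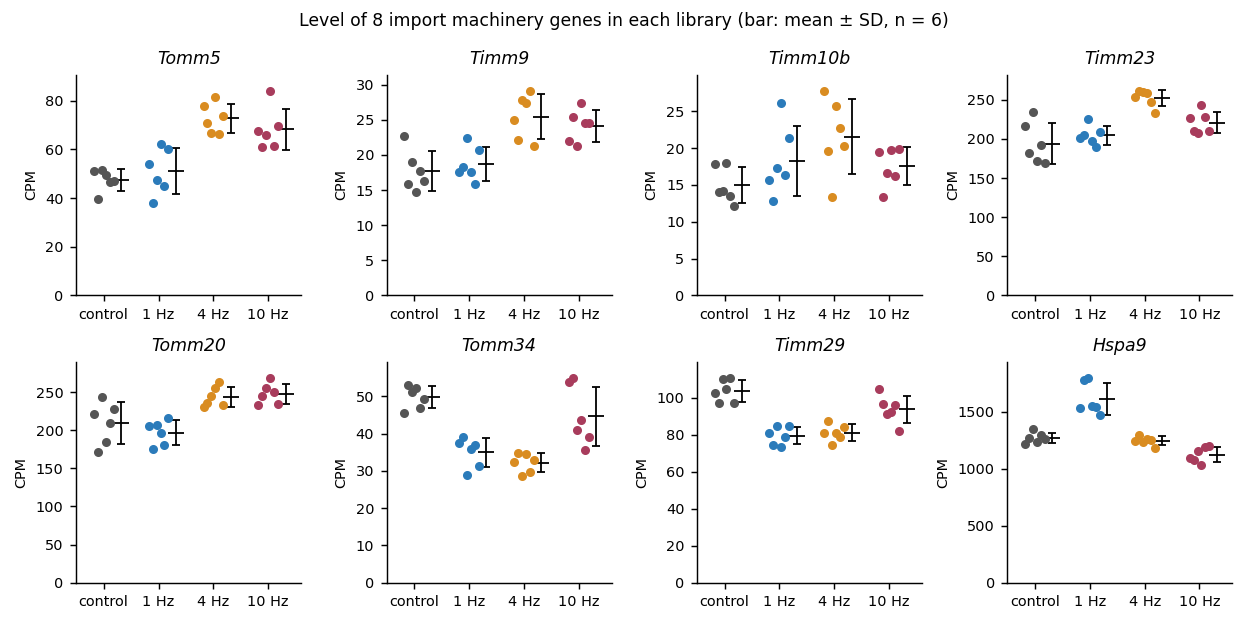
CPM of 8 members in each of the 24 libraries, with the mean ± SD of 6 libraries beside the points. Tomm5 lies above control in all 4 Hz and 10 Hz libraries, Tomm34 and Timm29 lie below control in all 1 Hz and 4 Hz libraries, and Hspa9 lies above control in all 1 Hz libraries.

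In the TIM23 complex, 3 of 5 members were higher at 4 Hz and 0 passed at 1 Hz or 10 Hz in edgeR. The medians were 0.29 at 4 Hz, 0.08 at 1 Hz, and 0.19 at 10 Hz. Of all tested genes 19.2% were higher at 4 Hz, 18.1% higher and 17.3% lower at 1 Hz, and 2.67% higher and 2.22% lower at 10 Hz. Timm23 (chr14:31902119-31924263, minus strand) had 169, 187, and 234 CPM as lowest, median, and highest control library. The values were 189.9, 203, and 225 CPM at 1 Hz, 233, 256, and 261 CPM at 4 Hz, and 207, 219, and 243 CPM at 10 Hz. The 4 Hz libraries overlapped control only in that the highest control library exceeded the lowest 4 Hz library. The log2 fold change was 0.38 ± 0.07 at 4 Hz (edgeR, adjusted p = 0.000258), 0.19 ± 0.07 at 10 Hz (adjusted p = 0.141), and 0.08 ± 0.07 at 1 Hz (adjusted p = 0.449). With length correction the 4 Hz value was 0.30 (adjusted p = 0.00161). The exons of Timm23 overlap those of Ncoa4 and Parg on the opposite strand, its counts were not whole in all 24 libraries, and whether the counting separated the strands is not known.

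Timm21, which links TIM23 to the TOM complex and the respiratory chain, rose by 0.39 ± 0.11 (edgeR, adjusted p = 0.00827) at 4 Hz. Timm17b, one of the alternative partners of Timm23 in the channel, rose by 0.29 ± 0.09 (adjusted p = 0.0130). With length correction both calls were lost (adjusted p = 0.158 for Timm21 and 0.135 for Timm17b). The other partner, Timm17a, had 0.15 ± 0.07 (adjusted p = 0.117), and the receptor Timm50 had 0.22 ± 0.13 (adjusted p = 0.171). Within the complex the channel, 1 of its alternative partners, and the linker thus passed in edgeR, and Timm17a and the receptor did not. Whether the subunits differed from each other was not tested.

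The import motor was the group with calls in both directions at 1 Hz: of 5 members, 3 were higher and 1 lower at 1 Hz, 3 were higher at 4 Hz, and 0 passed at 10 Hz in edgeR. The background over the tested genes was 18.1% upward and 17.3% downward at 1 Hz, 19.2% upward at 4 Hz, and 2.67% upward and 2.22% downward at 10 Hz. Hspa9, the ATP-driven chaperone that pulls precursors into the matrix, had 1219, 1265, and 1346 CPM as lowest, median, and highest control library. It had 1473, 1547, and 1795 CPM at 1 Hz, 1183, 1247, and 1298 CPM at 4 Hz, and 1035, 1123, and 1197 CPM at 10 Hz. All 1 Hz libraries were above control, the 4 Hz libraries overlapped control, and all 10 Hz libraries were below control. Hspa9 rose by 0.34 ± 0.06 (edgeR, adjusted p = 0.000174) at 1 Hz, had -0.03 ± 0.06 at 4 Hz (adjusted p = 0.729), and had -0.18 ± 0.06 at 10 Hz (adjusted p = 0.0946). The 10 Hz difference passed in DESeq2 (-0.17, adjusted p = 0.0289) and on log2(TPM + 1) in limma (-0.28, adjusted p = 0.0193). At 4 Hz the limma value on log2(TPM + 1) was -0.22 (adjusted p = 0.0114), so the 4 Hz call differed between edgeR on counts and limma on this scale, and the cause was not tested. On this scale the median of all genes was itself -0.16 at 4 Hz and -0.09 at 10 Hz.

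Pam16, which regulates the J protein of the motor, rose by 0.31 ± 0.12 (edgeR, adjusted p = 0.0487) at 1 Hz and by 0.45 ± 0.12 at 4 Hz (adjusted p = 0.00494). Dnajc19, a J protein that stimulates Hspa9, rose by 0.28 ± 0.10 at 1 Hz (adjusted p = 0.0353) and by 0.44 ± 0.10 at 4 Hz (adjusted p = 0.00150). Grpel1, the nucleotide exchange factor of Hspa9, had 0.16 ± 0.09 at 1 Hz (adjusted p = 0.177) and rose by 0.39 ± 0.09 at 4 Hz (adjusted p = 0.00105). Timm44, which tethers Hspa9 to the channel, fell by 0.23 ± 0.07 at 1 Hz (adjusted p = 0.0160) and had -0.09 ± 0.07 at 4 Hz (adjusted p = 0.367). Its 1 Hz call was lost in 5 of 14 other settings, limma on log2(TPM + 1) among them (-0.22, adjusted p = 0.0989). Leaving out 1 library kept this Timm44 call, narrowly in the weakest fit (edgeR, adjusted p = 0.04996). The 1 Hz calls of Pam16 and Dnajc19 were not stable. The Pam16 call was lost in 9 of 14 other settings, with length correction among them (adjusted p = 0.0552). It was also lost without 1 Hz replicate 4 (adjusted p = 0.156) or 6 (0.141) and without control replicate 2 (0.0760), 3 (0.0804), 5 (0.0549), or 6 (0.124). The Dnajc19 call was lost in 10 of 14 other settings, with length correction among them (adjusted p = 0.0840). It was also lost without 1 Hz replicate 2 (adjusted p = 0.0679), 3 (0.0649), or 4 (0.0767) and without control replicate 4 (0.0851) or 6 (0.0946). At 4 Hz both calls were kept without any single library and were lost with length correction (adjusted p = 0.149 and 0.148). The 1 Hz rise of Hspa9 was lost only with the small RNA covariate (adjusted p = 0.277). Dnajc19 exons overlap those of Fxr1 on the opposite strand, and the Pam16 counts were not whole in all 24 libraries.

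Among the small Tim and TIM22 members, 3 of 8 were higher and 1 lower at 4 Hz, 1 was lower at 1 Hz, and 1 was higher at 10 Hz, with 19.2% of all tested genes higher and 20.2% lower at 4 Hz, 17.3% lower at 1 Hz, and 2.67% higher at 10 Hz. Timm9 (chr12:71168589-71183475, minus strand), which forms the hexameric chaperone for carrier proteins with Timm10, had 14.8, 17, and 22.7 CPM as lowest, median, and highest control library. It had 15.9, 17.9, and 22.5 CPM at 1 Hz, 21.2, 26.1, and 29.1 CPM at 4 Hz, and 21.3, 24.5, and 27.4 CPM at 10 Hz. The 4 Hz and 10 Hz libraries overlapped control only through the highest control library. The log2 fold change was 0.52 ± 0.11 at 4 Hz (edgeR, adjusted p = 0.000603), 0.45 ± 0.11 at 10 Hz (adjusted p = 0.0195), and 0.09 ± 0.11 at 1 Hz (adjusted p = 0.547). The 10 Hz call was lost with length correction (0.31, adjusted p = 0.135) and without 10 Hz replicate 4 (0.41, adjusted p = 0.0563). Its partner Timm10 rose by 0.28 ± 0.11 at 4 Hz (adjusted p = 0.0418), a call lost in 9 of 14 other settings, with length correction among them (0.04, adjusted p = 0.698). It was also lost without 4 Hz replicate 1 (adjusted p = 0.0988), 4 (0.0528), or 6 (0.0861) and without control replicate 2 (0.0754), 5 (0.0534), or 6 (0.108).

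Timm10b (chr7:105289263-105292847, plus strand), the small Tim that docks on TIM22, had 12.1, 14.2, and 18 CPM as lowest, median, and highest control library. The values were 12.8, 16.8, and 26.1 CPM at 1 Hz, 13.4, 21.5, and 27.8 CPM at 4 Hz, and 13.4, 18.1, and 19.8 CPM at 10 Hz. All conditions overlapped control, and the 1 Hz and 4 Hz libraries were the most scattered. The log2 fold change was 0.52 ± 0.16 at 4 Hz (edgeR, adjusted p = 0.0131), 0.29 ± 0.17 at 1 Hz (adjusted p = 0.175), and 0.23 ± 0.17 at 10 Hz (adjusted p = 0.467). The 4 Hz call was lost with length correction (0.26, adjusted p = 0.162) and on log2(TPM + 1) (0.39, adjusted p = 0.108), and the value was -0.03 with the small RNA covariate. Its exons overlap those of Arfip2 on the opposite strand and of Gm45799 on its own strand, and its counts were not whole in all 24 libraries.

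Timm29 (chr9:21504018-21507266, plus strand), a subunit of TIM22, went the other way. Its lowest, median, and highest control libraries had 97.1, 104, and 111 CPM, with 73.5, 79.8, and 84.5 CPM at 1 Hz, 74.5, 81.0, and 87.5 CPM at 4 Hz, and 82.2, 94.2, and 105 CPM at 10 Hz. All 1 Hz and 4 Hz libraries lay below control, and the 10 Hz libraries overlapped it. Timm29 fell by 0.38 ± 0.07 on the log2 scale (edgeR, adjusted p = 0.000109) at 1 Hz and by 0.35 ± 0.07 at 4 Hz (adjusted p = 0.000159), and had -0.15 ± 0.07 at 10 Hz (adjusted p = 0.202). With length correction the values were -0.40 and -0.29, and with the small RNA covariate -0.31 (adjusted p = 0.252) and -0.28 (adjusted p = 0.158). The channel subunit Timm22 had 0.16 ± 0.07 at 4 Hz (adjusted p = 0.0715), and Timm8a1 (0.43 ± 0.18, adjusted p = 0.0539), Timm13 (0.36 ± 0.16, adjusted p = 0.0719), and Timm8b (0.17 ± 0.10, adjusted p = 0.158), the chaperones of the other small Tim hexamer, did not pass at 4 Hz.

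Chchd4, the oxidoreductase that traps small cysteine-rich proteins, rose by 0.30 ± 0.09 (edgeR, adjusted p = 0.00786) at 4 Hz, and its exons overlap those of Tmem43 on the opposite strand. This call was lost in 5 of 14 other settings. Among them were total count scaling (adjusted p = 0.0567) and limma on log2(TPM + 1) (0.11, adjusted p = 0.282). Gfer, which reoxidizes Chchd4, had 0.00 ± 0.10 (adjusted p = 0.998). Samm50, the core of the outer membrane sorting complex, had 0.02 ± 0.07 at 1 Hz, 0.04 ± 0.07 at 4 Hz, and 0.03 ± 0.07 at 10 Hz. The subunits of the processing peptidase, Pmpca and Pmpcb, had -0.08 ± 0.07 and 0.10 ± 0.07 at 4 Hz and did not pass in any comparison with control. Altogether 13 members passed in no comparison with control, namely Tomm22, Tomm40, Tomm6, Timm17a, Timm50, Timm13, Timm22, Timm8a1, Timm8b, Gfer, Samm50, Pmpca, and Pmpcb.

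By the edgeR calls alone, which for several members depend on the setting, the members fell into few patterns across the frequencies. Tomm5 and Timm9 passed upward at 4 Hz and 10 Hz. Pam16 and Dnajc19 passed upward at 1 Hz and 4 Hz, and Timm29 and Tomm34 downward at both. Hspa9 passed upward at 1 Hz alone, and Timm44, Tomm40l, and Tomm70a downward at 1 Hz alone. The other 9, Chchd4, Grpel1, Timm10, Timm10b, Timm17b, Timm21, Timm23, Tomm20, and Tomm7, passed at 4 Hz alone. Passing at one frequency and not at another is no test of a difference between frequencies, which were compared directly.

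Against 1 Hz, 8 members were higher and 1 lower at 4 Hz, with 5.71% of all genes higher and 6.56% lower. The largest were Tomm5 (0.51 ± 0.10, edgeR, adjusted p = 0.00201) and Timm9 (0.43 ± 0.11, adjusted p = 0.0111), and Timm21, Timm10, Tomm20, Timm23, Tomm40l, and Timm22 were higher too. Hspa9 was the lower one, and fell by 0.37 ± 0.06 on the log2 scale (adjusted p = 0.000418). With length correction these counts were 2 higher and 1 lower, against 2.59% and 3.03% of all genes. Of the 8 higher members, only Tomm5 was among these 2. The calls lost with this correction were those of Timm9 (0.26, adjusted p = 0.165), Timm23 (0.124), Tomm20 (0.114), Tomm40l (0.0508), Timm22 (0.146), Timm21 (0.392), and Timm10 (0.387). Without 1 of the libraries the calls of Timm22 (without 1 Hz replicate 5, adjusted p = 0.0522), Timm21, and Timm10 were lost. For Timm21 this held for 1 Hz replicates 4 (adjusted p = 0.0998), 5 (0.0917), and 6 (0.0740) and 4 Hz replicates 2 (0.0532), 3 (0.0995), 4 (0.0755), and 5 (0.0828). For Timm10 it held for 1 Hz replicates 1 (adjusted p = 0.0608), 2 (0.0745), 3 (0.0813), 4 (0.111), and 5 (0.0581) and 4 Hz replicates 1 (0.105), 4 (0.0699), and 6 (0.0766). Against 1 Hz, 9 members were higher and 1 lower at 10 Hz, with 17.7% of all genes higher and 18.5% lower. Hspa9 fell by 0.52 ± 0.06 (adjusted p = 1.35e-06) and Tomm5 rose by 0.41 ± 0.10 (adjusted p = 0.00254). Timm44, Tomm70a, Tomm34, Timm9, Tomm20, Tomm40l, Timm22, and Timm29 were the other 8 higher at 10 Hz than at 1 Hz. With length correction these counts were 6 higher and 2 lower, against 17.6% and 17.5% of all genes. The calls of Tomm40l (adjusted p = 0.0854), Timm22 (0.118), and Timm9 (0.110) were lost with this correction, and each in 7 of 14 other settings. Against 4 Hz, 3 members were higher and 1 lower at 10 Hz, with 10.9% of all genes higher and 11.9% lower. Tomm34 averaged 32.3 ± 2.54 CPM (SD, n = 6) at 4 Hz, reached 44.6 ± 7.94 CPM at 10 Hz, and thus rose by 0.47 ± 0.10 on the log2 scale (adjusted p = 0.00156), and Timm44 and Timm29 were higher as well. The Timm44 call was lost without 10 Hz replicate 1 (adjusted p = 0.0578) or 4 Hz replicate 4 (0.0584), and the Timm29 call without 10 Hz replicate 1 (0.0770) or 4 Hz replicate 3 (0.0637). Dnajc19 averaged 23.3 ± 2.27 CPM (SD, n = 6) at 4 Hz and only 19.2 ± 1.74 CPM at 10 Hz, a fall by 0.28 ± 0.10 (adjusted p = 0.0429). This Dnajc19 call was lost in 12 of 14 other settings, without 10 Hz replicate 1 (adjusted p = 0.0969), 2 (0.0811), 3 (0.0676), or 4 (0.0751), and without 4 Hz replicate 1 (0.0605), 3 (0.0801), 4 (0.108), or 5 (0.0504).

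The summed level of the 32 members in TPM was 3692 ± 135 TPM in control, 3821 ± 38.7 at 1 Hz, 3735 ± 145 at 4 Hz, and 3707 ± 205 at 10 Hz (SD, n = 6), or 103%, 101%, and 100.4% of control. In CPM the sums were 3634 ± 157 in control, 3951 ± 144 at 1 Hz, 3890 ± 95.0 at 4 Hz, and 3703 ± 75.3 at 10 Hz, or 109%, 107%, and 102% of control. Hspa9 made up 17.5 ± 0.913% of the summed TPM in control, 20.5 ± 2.08% at 1 Hz, 14.8 ± 0.915% at 4 Hz, and 14.4 ± 1.67% at 10 Hz. Without Hspa9 the summed level was 3047 ± 133 TPM in control, 3039 ± 99.5 at 1 Hz, 3181 ± 139 at 4 Hz, and 3174 ± 229 at 10 Hz. The sums were not tested. The TPM sums differed by about the spread between libraries, and the CPM sums at 1 Hz and 4 Hz stood above control by more than 1 SD. Hspa9 alone averaged 1271 CPM in control, 1612 at 1 Hz, and 1245 at 4 Hz. Its rise at 1 Hz was thus no smaller than that of the CPM sum, so the other members together did not rise there. At 4 Hz the rise of the CPM sum lay in members other than Hspa9. The CPM sums were not corrected for gene length, and 20 of the 32 members lay in the shortest 25% of tested genes. On log2(TPM + 1) the median of all genes was itself -0.16 at 4 Hz. Why the sums in TPM and CPM differed was not tested.

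**Figure D5:**
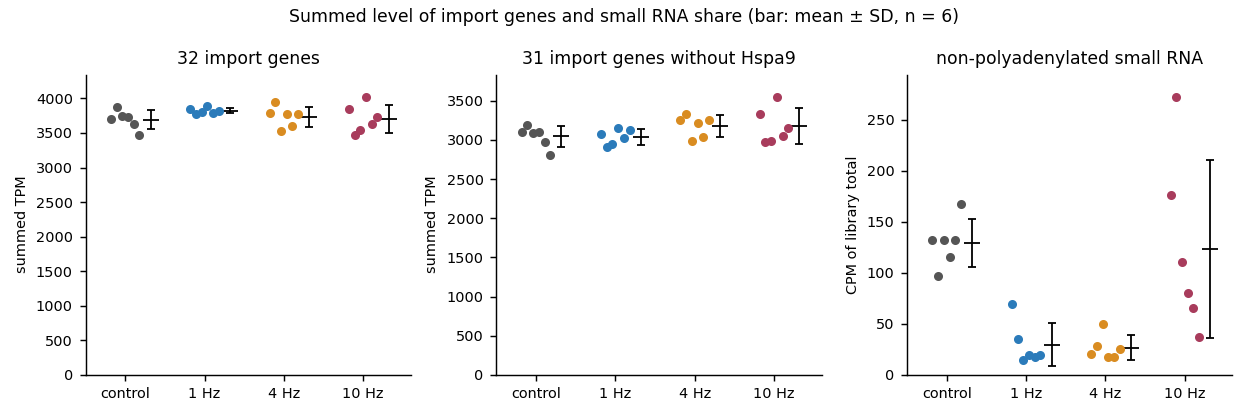
Summed TPM of the 32 members, the same without Hspa9, and CPM of non-polyadenylated small RNA, in each library with the mean ± SD of 6 libraries. The sums overlap in all conditions, with means of 3692 TPM in control and 3735 TPM at 4 Hz, while the small RNA share of the 1 Hz and 4 Hz libraries lies below that of control.

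Ratios of partners within a library do not depend on the scaling of the library, but they are of counts and were not corrected for gene length. For 10 pairs they were compared with control at each frequency by 2-sided exact permutation tests. Of 30 tests 0 passed after BH adjustment, with a smallest adjusted p of 0.0649, and 8 had an unadjusted p below 0.05. Since the smallest p these tests allow is 0.00216, a single ratio with no overlap could not pass over 30 tests, and the count of 0 does not show that the ratios were alike. The log2 ratio of the receptors Tomm20 and Tomm70a was -0.17 ± 0.09 in control and 0.21 ± 0.22 at 4 Hz (SD, n = 6), with no overlap, a difference of 0.38, and an exact permutation p of 0.00216. Tomm20 lay in the shortest length class and Tomm70a in the longest (0.54 and 2.63 of the median tested gene). The medians of all tested genes in these classes at 4 Hz were 0.14 and -0.06. How much of the difference goes with length was not tested. The ratio of Tomm40 to its paralog Tomm40l had means of 0.20 ± 0.18 in control (SD, n = 6) and 0.70 ± 0.24 at 1 Hz, with overlap and an unadjusted exact permutation p of 0.00433. The ratio of Chchd4 to Gfer had means of 0.45 ± 0.26 in control (SD, n = 6) and 0.75 ± 0.12 at 4 Hz, with an unadjusted exact permutation p of 0.0216 and an adjusted p of 0.162.

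Of 15 further import genes that the name rule does not cover, 2 were higher and 1 lower at 1 Hz, 3 higher and 1 lower at 4 Hz, and 1 higher and 0 lower at 10 Hz. The background over the tested genes was 18.1% upward and 17.3% downward at 1 Hz, 19.2% and 20.2% at 4 Hz, and 2.67% and 2.22% at 10 Hz, and the counts of 15 were near or below these shares at 1 Hz and 4 Hz. Dnajc15, a J protein of the inner membrane related to Dnajc19, rose by 0.59 ± 0.11 (edgeR, adjusted p = 0.000164) at 1 Hz, by 0.98 ± 0.10 at 4 Hz (adjusted p = 2.67e-07), and by 0.45 ± 0.11 at 10 Hz (adjusted p = 0.0137). Its level at 4 Hz was 33.8 ± 3.52 CPM against 17.2 ± 2.02 CPM in control (SD, n = 6). Mipep, a peptidase that trims some precursors after the processing peptidase, rose by 0.54 ± 0.10 at 1 Hz (adjusted p = 0.000142) and by 0.86 ± 0.09 at 4 Hz (adjusted p = 3.48e-07). Both 4 Hz values were above the 0.62 of Tomm5 in the same fit, the largest of the 32 members. For these 15 genes only this edgeR fit is given, without the length correction or small RNA covariate used for the members. Immp1l, of the inner membrane peptidase, rose by 0.47 ± 0.14 at 4 Hz (adjusted p = 0.0109), Mtx1, an outer membrane metaxin, fell by 0.33 ± 0.13 at 4 Hz (adjusted p = 0.0360), and Xpnpep3, an aminopeptidase, fell by 0.26 ± 0.09 at 1 Hz (adjusted p = 0.0212).

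Of 12 genes of matrix folding and proteolysis, which receive imported proteins, 2 were higher and 1 lower at 1 Hz, 2 higher and 4 lower at 4 Hz, and 0 higher and 1 lower at 10 Hz. The same background holds here (19.2% upward and 20.2% downward at 4 Hz), and with 12 genes no count stood more than 2 genes from it. Trap1, the mitochondrial Hsp90, rose by 0.42 ± 0.09 (edgeR, adjusted p = 0.000642) at 1 Hz and by 0.46 ± 0.09 at 4 Hz (adjusted p = 0.000189). Pitrm1, which degrades cleaved presequences, rose by 0.25 ± 0.07 at 1 Hz (adjusted p = 0.00405). Spg7 and Afg3l2, the listed subunits of the matrix-facing AAA protease, fell at 4 Hz, by 0.40 ± 0.08 (adjusted p = 0.000578) and 0.36 ± 0.07 (adjusted p = 0.000335). Yme1l1, the protease facing the intermembrane space, rose by 0.37 ± 0.14 at 4 Hz (adjusted p = 0.0362). The chaperonin Hspd1 fell by 0.25 ± 0.09 at 4 Hz (adjusted p = 0.0350), and the unfoldase Clpx fell by 0.31 ± 0.09 at 1 Hz (adjusted p = 0.00743) and by 0.22 ± 0.09 at 4 Hz (adjusted p = 0.0451). At 10 Hz Afg3l2 fell by 0.25 ± 0.07 (adjusted p = 0.0401). Here too only this edgeR fit is given, without length correction or the small RNA covariate.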

How the data were processed

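RNA of 24 tissues (6 per condition) was sequenced as paired-end reads. Per the labels poly(A) RNA was selected, with ribodepletion for samples of low input, and the labels do not say which. The authors deposited, for each gene, estimated counts from salmon, made with the nf-core/rnaseq pipeline on GRCm39 and its Ensembl annotation and not normalized, and TPM that were scaled by the authors within each library. Of these, 6.62% to 10.6% per library were not whole. Per the study's methods the library kit marks strand. The strand setting of the counting is not given in the sources used here, so whether reads were separated for the 24 of 32 members whose exons overlap a gene on the opposite strand is not known. For 5 members an overlapping gene lies on the same strand. The processing notes of the submitters also list BWA 0.7.12-r1039 and bedtools 2.25.0. The study's methods name BWA-MEM for mapping, without a version, and bedtools for quality metrics, in a different version.

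Counts were rounded, and filterByExpr kept 13318 genes, which held 99.8% of all counts. TMM scaling and the quasi-likelihood test (edgeR 4.0.16, R 4.3.3) used all 24 libraries together, with condition as the factor, and p-values were adjusted over all genes tested. The SE is the absolute log2 fold change over the square root of F. DESeq2 1.42.0, limma 3.58.1 on log2(TPM + pseudocount), other scalings, filters (none, or a mean of at least 5 CPM), correction for gene length (lowess, span 0.3), a small RNA covariate, thinned counts, a replicate block, and leaving out each library were the alternatives. With a pseudocount, limma understates changes of genes with low TPM. Total counts of 4.09 to 15.2 M per library set the precision. No pair of the 60 within conditions looked like a single library deposited under both names (lowest chi-square per gene 3.18). The fits were tested on simulated data first.

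The members and gene lists were chosen with earlier results of these data known. Members given in full are those past an adjusted p of 0.05 with an absolute log2 fold change above 0.5 against control, filled up to 6 by the smallest adjusted p, plus Tomm20 and Timm23, and, between frequencies, the 2 largest changes past the test per comparison. Gene positions came from GENCODE M39 on GRCm39 and promoters from RefSeq on GRCm38.p6, which were not combined.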

Additional observations from a re-analysis of the deposited data

Results flagged for a closer look

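Of 76 groups of 6 libraries checked for a library far from the others, 3 were marked, and chance marks about 1 in 20 groups. All 3 were partner ratios. Control replicate 4 had a log2 ratio of Tomm40 to Tomm40l of 0.55, while the other control libraries had 0.06 to 0.21. At 4 Hz, replicate 2 had a ratio of the same genes of 0.13, under the 0.38 to 0.49 of the others. At 4 Hz, replicate 5 had a log2 ratio of Chchd4 to Gfer of 0.98, above the 0.66 to 0.73 of the others.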

How the results depend on the processing

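Counts of members past the test are totals of both directions, and the cause of their changes was not tested. At 1 Hz (8 members) they were 4 in limma on log2(TPM + 0.1) and log2(TPM + 1), 3 without a filter on TPM, 4 without a filter on counts, 0 with the small RNA covariate, and 1 with the fold requirement. At 4 Hz (15) they were 7 with length correction, 6 in limma without a filter, 0 with the covariate, and 4 with the fold requirement. At 10 Hz (2) they were 4 in DESeq2 and in limma with either pseudocount, and 1 with length correction or the fold requirement. For 4 Hz against 1 Hz (9) they were 3 with length correction, 2 in the 3 limma fits, 5 without a filter, and 1 with the fold requirement. For 10 Hz against 1 Hz (10) they were 5 with log2(TPM + 0.1), 6 with log2(TPM + 1) and without a filter on counts, 4 in limma without a filter, and 1 with the covariate or the fold requirement. For 10 Hz against 4 Hz (4) they were 2 with thinned counts or only the 12 libraries compared, 1 without a filter, and 0 with the covariate or the fold requirement. The summed level in CPM was 109% of control at 1 Hz and 107% at 4 Hz. Signs turned with the covariate for Tomm5 (-0.00384), Timm9 (-0.00195), and Timm10b (-0.25) at 1 Hz and Timm10b (-0.028) at 4 Hz, for Hspa9 at 4 Hz with length correction (0.033, and 0.034 with the block added) and without a filter (0.00811), and for Tomm20 at 1 Hz in the 3 limma fits (0.024), none of which passed the test in either fit. Replicate numbers do not pair the libraries (same-number correlations from -0.18 to 0.36, and 0 to 2 of 6 libraries closest to their own number). With the replicate block 8, 18, and 2 members passed at 1, 4, and 10 Hz, and with the block and length correction 8 at 4 Hz, 1 at 10 Hz, and 4 for 4 Hz against 1 Hz. Leaving out 1 library gave 4 to 8 at 1 Hz, 13 to 17 at 4 Hz, 1 to 4 at 10 Hz, 6 to 9 for 4 Hz against 1 Hz, 10 to 12 for 10 Hz against 1 Hz, 1 to 5 for 10 Hz against 4 Hz, and 0 to 3 for partner ratios, and summed levels of 102.2% to 104.5%, 99.9% to 102.2%, and 98.7% to 101.7% of control at 1, 4, and 10 Hz. The libraries that moved a count most were 1 Hz replicate 4 (4 members) and control replicate 6 (5 members) at 1 Hz, 10 Hz replicate 4 (1) and control replicate 3 (4) at 10 Hz, 10 Hz replicate 1 (1) and 4 Hz replicates 3 and 4 (2 each) for 10 Hz against 4 Hz, and 1 Hz replicate 2 (2) and 4 Hz replicate 6 (3) for the ratios.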
